A study of Mus musculus with 4 samples.

Results

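Glycolysis enzymes were described across CD4 and CD8 T cells labelled as Gfi1 knockout or wildtype. The set held 10 genes, Gapdh, Pkm, Ldha, Aldoa, Eno1, Pgk1, Tpi1, Pgam1, Gpi1 and Hk2, and its members were all probe sets that the platform annotation assigns to one of these symbols. There were 19 such probe sets of 22690 on the array. Of these, 14 carried a single member symbol and covered 7 genes, 3 were array control probe sets of Gapdh, and 2 listed Gapdh together with Gapdh pseudogenes or other loci. No probe set was assigned to Eno1 or Gpi1, so these genes were not analysed here. Counts and medians below rest on the 7 genes with a single-symbol probe set, and Gapdh is described apart.

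Untreated spleen T cells of C57Bl/6 mice, sorted by flow cytometry on CD4, CD8 and CD44, were profiled with Affymetrix MOE430A_2.0 arrays. The 4 groups were CD4+ CD44lo cells from Gfi1 knockout mice, CD8+ CD44lo cells from Gfi knockout mice, CD4+ CD44lo cells from wildtype mice and CD8+ CD44lo cells from wildtype mice. Each group had 1 array with pooled RNA of 2 mice. Gfi1 encodes a transcriptional repressor of blood cells. The allele, the deleted exons and the age of the mice are not given here. Sample titles end in N on both arrays labelled knockout and in M on both labelled wildtype, and the labels do not explain these letters. With 1 array per group there was no spread between samples, and precision is limited by the number of arrays.

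Glycolysis splits glucose into pyruvate in a chain of cytosolic enzymes. Hexokinases trap glucose by phosphorylation, an isomerase and phosphofructokinase prepare it for cleavage, aldolase cleaves it into a pair of triose phosphates, and the later enzymes recover ATP and pass pyruvate to lactate dehydrogenase or to mitochondria. Resting naive T cells take up little glucose, and activated, dividing T cells raise glucose transport and glycolysis under the control of factors such as Myc and hypoxia-inducible factor. Several of these enzymes, Gapdh above all, are also used as loading controls.

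The labels were checked first. Gfi1 read 2891 on the array labelled knockout CD4 against 2272 on wildtype CD4, and 2447 on knockout CD8 against 1158 on wildtype CD8, so it was not lower on the arrays labelled knockout; whether its probe set lies inside the deletion is not known here. Cd44, the receptor used for sorting, read 196 on knockout CD4 against 8136 on wildtype CD4 and 252 on knockout CD8 against 5740 on wildtype CD8, although the labels give CD44lo for every sample. Each direction below is therefore a direction between labelled arrays, in which the genotype label and a difference in the sorted CD44 fraction cannot be told apart. Summed signal of 5 antigen-experienced T cell markers was 1770 against 52530 in CD4 cells and 9405 against 56753 in CD8 cells, labelled knockout against wildtype, and summed signal of 5 dividing cell markers was 1015 against 16603 and 2436 against 7152; all 5 members of either list were lower on the array labelled knockout in both subsets. The sum of 8 dendritic and myeloid markers was 1100 on knockout CD8 against 29218 on wildtype CD8, with 7 of the 8 lower on the knockout array, and 2590.1 on knockout CD4 against 2571 on wildtype CD4. All 3 erythroid markers that could be named lay below the floor on all 4 arrays, as did Cd79a, Ms4a1 and Pax5 of the 4 B cell markers that could be named. The other, Cd79b, read 57.1 on knockout CD4 and 738 on knockout CD8 against 305 on wildtype CD4 and 759 on wildtype CD8. Of the 2 natural killer markers that could be named, Ncr1 lay below the floor on all 4 arrays. Klra8 read 221 on wildtype CD8 and lay below the floor on the other arrays. Cd3d, Cd3e and Cd3g were above the floor on all 4 arrays. Cd4 was below it on both CD8 arrays and Cd8a on both CD4 arrays. Cd8b1 read 970.5 on knockout CD4 and 312 on wildtype CD4 against 25715 on knockout CD8 and 26222 on wildtype CD8. Zbtb7b, the other CD4 marker, was above the floor on all 4 arrays. It read 701 on knockout CD4 and 587 on wildtype CD4 against 110 on knockout CD8 and 148 on wildtype CD8. The floor, here and below, is a signal of 93.9, the 40th percentile of all values outside the array controls.

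Promoters of Hk2, Tpi1 and Ldha are shown because Hk2 and Tpi1 lay lowest of the members on the arrays labelled knockout relative to wildtype in both subsets, and Ldha lay highest in CD4 cells; in CD8 cells Pkm lay highest. The sequences are the 250 bases before the annotated start in RefSeq (GRCm38.p6), 5′ to 3′ on the strand of the gene, with capitals marking ACGTG or its reverse complement CACGT, the core of the site of hypoxia-inducible factors. The 5-letter core overlaps the E-box CACGTG bound by Myc and its partner Max, and each E-box contains the core on both strands.
Hk2, chr6:82774455-82774704, minus strand: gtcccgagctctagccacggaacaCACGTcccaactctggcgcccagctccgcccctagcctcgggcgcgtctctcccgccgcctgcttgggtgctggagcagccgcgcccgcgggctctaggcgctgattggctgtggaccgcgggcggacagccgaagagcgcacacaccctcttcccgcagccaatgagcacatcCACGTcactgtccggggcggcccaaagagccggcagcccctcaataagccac
Tpi1, chr6:124814159-124814408, minus strand: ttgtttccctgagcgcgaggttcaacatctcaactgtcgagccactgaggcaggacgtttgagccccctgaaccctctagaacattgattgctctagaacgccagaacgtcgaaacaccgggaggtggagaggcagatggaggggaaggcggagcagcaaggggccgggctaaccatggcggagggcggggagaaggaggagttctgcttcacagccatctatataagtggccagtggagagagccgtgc
Ldha, chr7:46845554-46845803, plus strand: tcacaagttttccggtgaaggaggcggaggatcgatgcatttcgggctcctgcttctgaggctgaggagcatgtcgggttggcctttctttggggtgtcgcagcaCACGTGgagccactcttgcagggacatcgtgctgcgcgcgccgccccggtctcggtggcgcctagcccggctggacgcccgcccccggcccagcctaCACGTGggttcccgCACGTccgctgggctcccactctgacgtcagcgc
The 2 Pkm windows held 0 and 1 matches to the core. It occurred 2 times in the Hk2 window, 5 times in this Ldha window, where 2 E-boxes account for 4 of the matches, and 0 times in the Tpi1 window. A second annotated Ldha start had 0 matches. All 10 genes had a promoter in the table, with 16 starts in all, and 7 of the 16 windows (43.8%) held the core against 16.6% of 32851 windows of the same length over all genes. The variant GCGTG (reverse complement CACGC) was in 6 of the 16 (37.5%) against 28.2% of all windows, and the E-box in 1 of the 16 (6.2%) against 6.02%. Windows of the same gene can overlap, and the counts describe letters only.

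Hk2, the inducible hexokinase of activated and growing cells, differed most among the members between the labelled genotypes. Its probe set read 48.4 on knockout CD4 against 207 on wildtype CD4, and 173 on knockout CD8 against 413 on wildtype CD8. Both arrays labelled knockout lay below both labelled wildtype, and the knockout CD4 value lay below the floor. On the arrays labelled knockout, Hk2 was lower by at least 2.20-fold among CD4 cells and by 2.38-fold among CD8 cells. The value for CD4 cells is a bound set by the floor. The limma fit across 15273 probe sets, with subset and genotype label as terms, did not call Hk2 (adjusted p = 0.133), and no fitted fold is given because an array was at the floor. The antigen-experienced and the dividing cell markers were lower on the same arrays, and the dendritic and myeloid markers were lower on knockout CD8; their part in this difference was not tested. In pooled RNA of sorted cells, fewer cells of a type and less RNA per cell cannot be told apart.

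Aldoa, the aldolase of most tissues, was close to level. Its brightest probe set read 11107 on knockout CD4 against 10878 on wildtype CD4, and 9014 on knockout CD8 against 10337 on wildtype CD8. Over its 4 probe sets the log2 difference, labelled knockout minus wildtype, ran from -0.26 to 0.06 in CD4 cells and from -0.27 to -0.14 in CD8 cells. Each of these is at most 1.21-fold, and limma called none of the 4 (adjusted p from 0.423 to 0.951). All 4 are of a type that can match several transcripts.

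Tpi1, which interconverts the triose phosphates that aldolase releases, was lower on the arrays labelled knockout by all 3 of its probe sets. The brightest read 1739 on knockout CD4 against 3304 on wildtype CD4, and 2020 on knockout CD8 against 3009 on wildtype CD8. The others read 1811 against 3066 and 1245 against 2109 in CD4 cells, and 1803 against 2822 and 1285 against 1497 in CD8 cells, knockout against wildtype in each pair. On every Tpi1 probe set both arrays labelled knockout lay below both labelled wildtype. The brightest probe set was 1.90-fold lower in CD4 cells and 1.49-fold lower in CD8 cells, just under the 1.5-fold limit used for counts, and a companion probe set was 1.56-fold lower in CD8 cells. As deposited, limma did not call them: the fitted log2 differences of the 3 probe sets were -0.75 ± 0.15, -0.70 ± 0.14 and -0.49 ± 0.18 (SE), with adjusted p = 0.0731, 0.0698 and 0.309. The first and second of these were called in 4 of 9 settings, those with a lower floor, no floor, a pseudocount or only probe sets with 4 arrays above the floor, with adjusted p over all settings from 0.0133 to 0.301 and from 0.0165 to 0.297. The antigen-experienced and dividing cell markers moved in the same direction on these arrays, as did the dendritic and myeloid markers in CD8 cells, and their part was not tested.

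**Figure D1:**
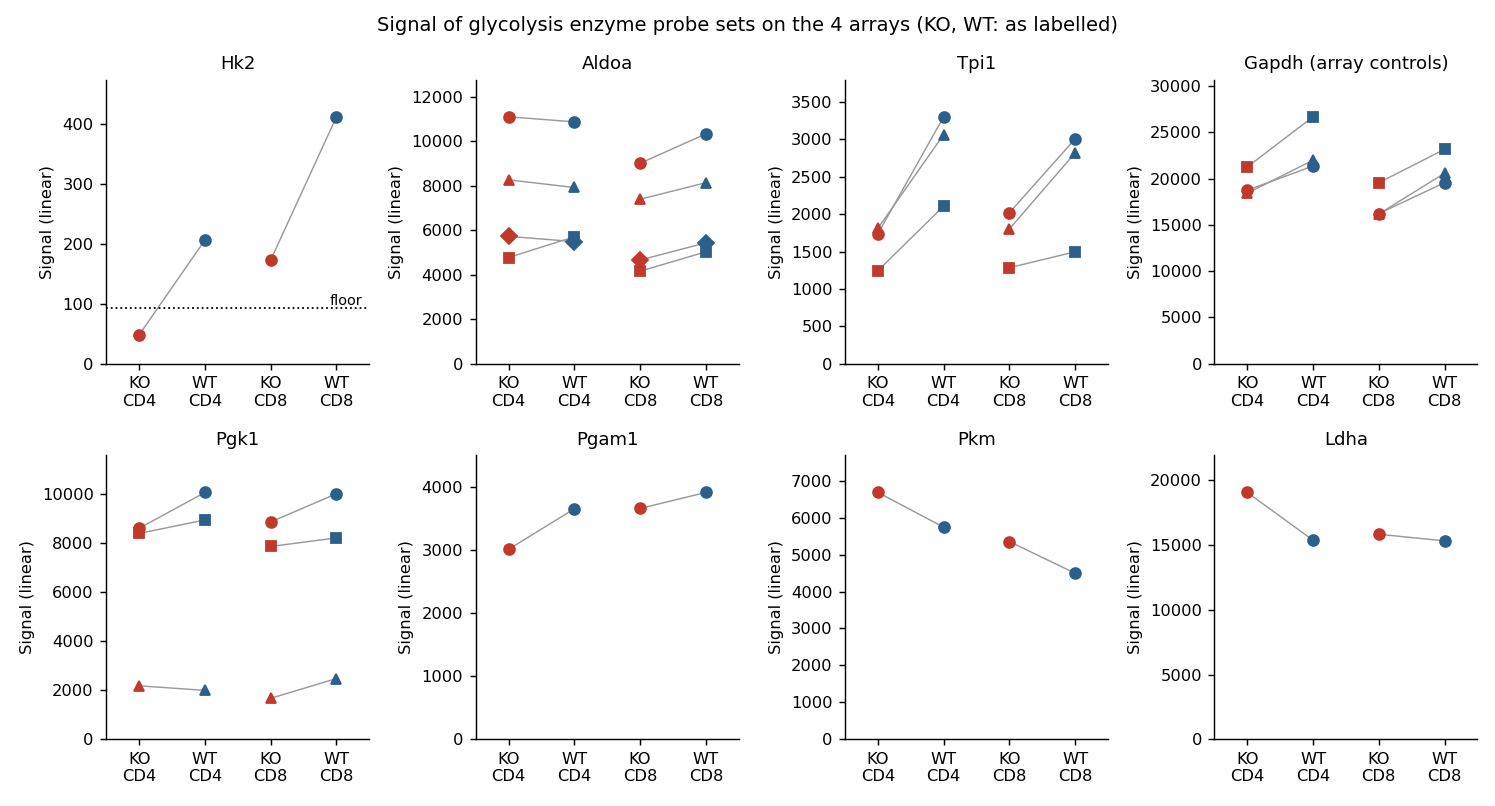
Signal on a linear scale for each probe set (marker shape) of 7 glycolysis enzymes and the 3 Gapdh controls, on the arrays labelled knockout (KO, red) and wildtype (WT, blue) in CD4 and CD8 cells, 1 array per point. Hk2 and Tpi1 lie lower on the knockout-labelled array in both subsets, Pkm and Ldha slightly higher, and Hk2 on knockout CD4 (48.4) lies below the floor of 93.9.

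Gapdh, which oxidises glyceraldehyde phosphate, was measured by the array controls along its transcript. The 5′ control read 21265 on knockout CD4 against 26691 on wildtype CD4, and 19564 on knockout CD8 against 23175 on wildtype CD8. The middle control read 18430 against 21998 and 16186 against 20588, and the 3′ control 18753 against 21364 and 16219.6 against 19568, in the same order. The differences were 1.14-fold to 1.27-fold, lower on the arrays labelled knockout in all 6 comparisons as deposited, and with arrays centred on their medians they turned positive for the middle and 3′ controls in CD4 cells (0.06 and 0.13 on the log2 scale) and shrank to between -0.13 and -0.01 in the rest. The ratio of 3′ to 5′ control signal was 0.88 on knockout CD4 and 0.83 on knockout CD8, and 0.80 on wildtype CD4 and 0.84 on wildtype CD8. The brighter probe set shared with pseudogenes differed on the log2 scale by -0.16 for CD4 and -0.23 for CD8 cells. The dimmer one read 257 against 180 for CD4 and 120 against 147 for CD8 cells, and cannot be assigned to Gapdh alone.

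Pgk1 and Pgam1, the kinase and the mutase of the ATP-recovering steps, differed little. Pgk1 read 8594 on knockout CD4 against 10049 on wildtype CD4 and 8850 on knockout CD8 against 9998 on wildtype CD8, 1.17-fold and 1.13-fold lower. A dimmer Pgk1 probe set departed from this, with a log2 difference of 0.13 for CD4 and -0.57 for CD8 cells. Pgam1 read 3007 on knockout CD4 against 3648 on wildtype CD4 and 3654 on knockout CD8 against 3907 on wildtype CD8, 1.21-fold and 1.07-fold lower. Limma called neither gene (lowest adjusted p = 0.599).

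Pkm and Ldha, at the lower end of the pathway, read higher on the arrays labelled knockout. Pkm encodes the muscle-type pyruvate kinase, and its probe set read 6679 on knockout CD4 against 5740 on wildtype CD4 and 5350 on knockout CD8 against 4493 on wildtype CD8. These differences were 1.16-fold and 1.19-fold, near equal in the subsets. Ldha encodes the lactate dehydrogenase subunit that favours lactate formation, and it read 19075 on knockout CD4 against 15385 on wildtype CD4 and 15847 on knockout CD8 against 15335 on wildtype CD8. Ldha was 1.24-fold higher for CD4 and 1.03-fold higher for CD8 cells, with its single high value on knockout CD4. The fitted log2 differences were 0.24 ± 0.13 for Pkm and 0.18 ± 0.16 for Ldha (SE), and limma called neither (adjusted p = 0.489 and 0.717).

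**Figure D2:**
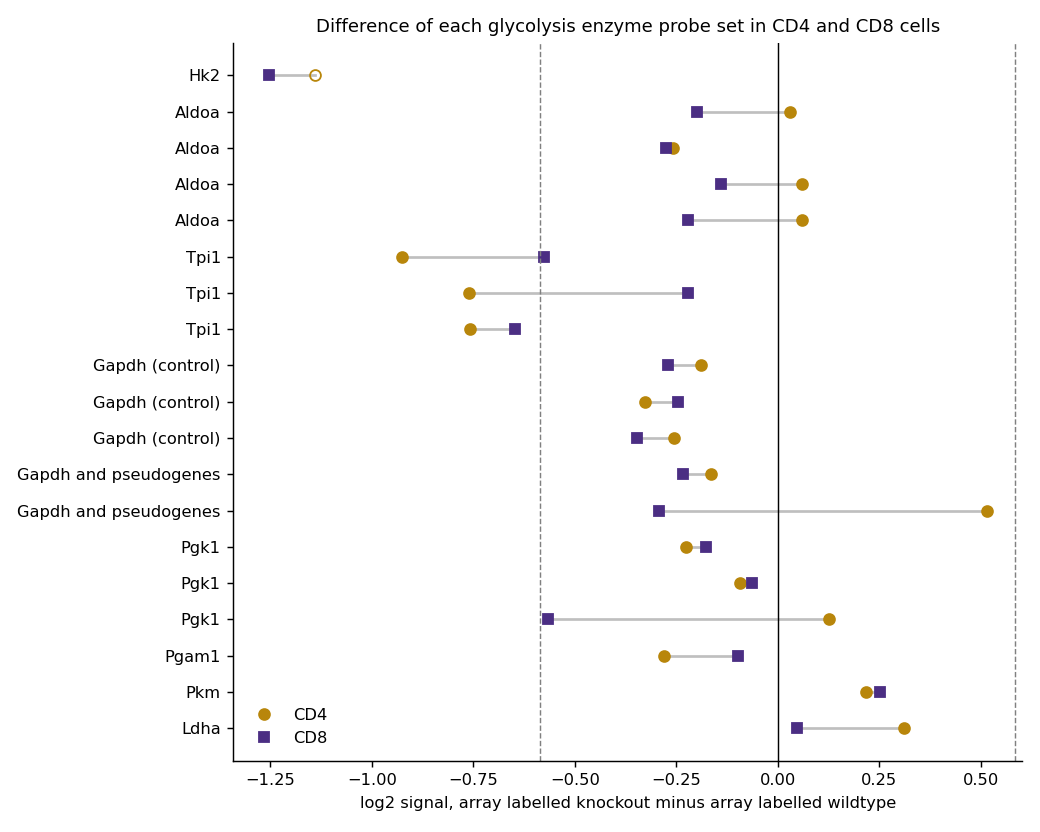
The log2 signal of the knockout-labelled minus the wildtype-labelled array for all 19 probe sets, in CD4 (circles) and CD8 cells (squares), with dashed lines at 1.5-fold and an open circle where the knockout array lay below the floor. Hk2 lies at -1.14 (a bound) and -1.25, the 3 Tpi1 probe sets lie between -0.93 and -0.22, and Pkm and Ldha lie between 0.05 and 0.31.

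Across the 7 genes the median log2 difference, labelled knockout minus wildtype, was -0.23 for CD4 and -0.18 for CD8 cells, against 0 in both subsets over the 8629 genes with an array above the floor. In CD4 cells 2 of 7 members, Hk2 and Tpi1, were at least 1.5-fold lower (14.6% of all genes) and 0 were higher (7.25%). In CD8 cells Hk2 was at least 1.5-fold lower (9.26% of all genes) and 0 members were higher (4.11%). Hk2 met the limit in both subsets, which 4.73% of all genes did, and 0 members were higher by that much in both (1.34%). Both arrays labelled knockout lay below both labelled wildtype for Hk2, Tpi1 and Pgk1 (20.3% of all genes) and above them for Ldha (17.5%). Limma called 0 of the 14 probe sets over both directions, against 0.288% of all probe sets called as higher and 0.851% as lower. At an unadjusted p under 0.05, 4 of 14 were lower, the 3 of Tpi1 and that of Hk2, against 8.37% of all probe sets. The error of that fit, with a single residual degree of freedom (1), is the disagreement between the subsets moderated by probe sets of like signal, so its p-values hold no spread between animals.

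Small differences moved with the scaling of the arrays. As deposited, the trimmed mean was near 1000 on all arrays, but the median signal was 189 on knockout CD4 against 235 on wildtype CD4 and 193 on knockout CD8 against 224 on wildtype CD8. Centring each array on its median put the median log2 difference of all probe sets above the floor on every array at 0.32 for CD4 and 0.21 for CD8 cells, against 0.01 and -0.00 as deposited. Under that scaling the member median was 0.09 for CD4 and 0.04 for CD8 cells, and 2 of 7 members lay below 0 in each subset, against 4 for CD4 and 5 for CD8 cells as deposited. Pgk1 and Pgam1 turned from lower to higher in both subsets and Aldoa in CD8 cells, so no direction can be given for these 3 genes. Measured from the median of the probe sets with 4 arrays above the floor, the member median was -0.24 for CD4 and -0.17 for CD8 cells. After quantile normalization 5 of 7 lay below 0 in each subset, with Aldoa in CD4 cells at -0.08. The share of all genes below 0 was not computed under any scaling, so these counts are not a result particular to the members. Hk2 and Tpi1 stayed lower under the 3 scalings, at -0.95 to -1.14 and -0.61 to -0.93 in CD4 cells and at -1.04 to -1.25 and -0.36 to -0.58 in CD8 cells. The Hk2 values in CD4 cells are bounds set by the floor, so their range does not measure how stable the difference was. As deposited, Hk2 in CD4 cells stood at -2.10 without a floor and at -1.79 with the pseudocount. Pkm and Ldha stayed higher, at 0.16 to 0.53 and 0.15 to 0.62 in CD4 cells and at 0.24 to 0.47 and 0.02 to 0.26 in CD8 cells.

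**Figure D3:**
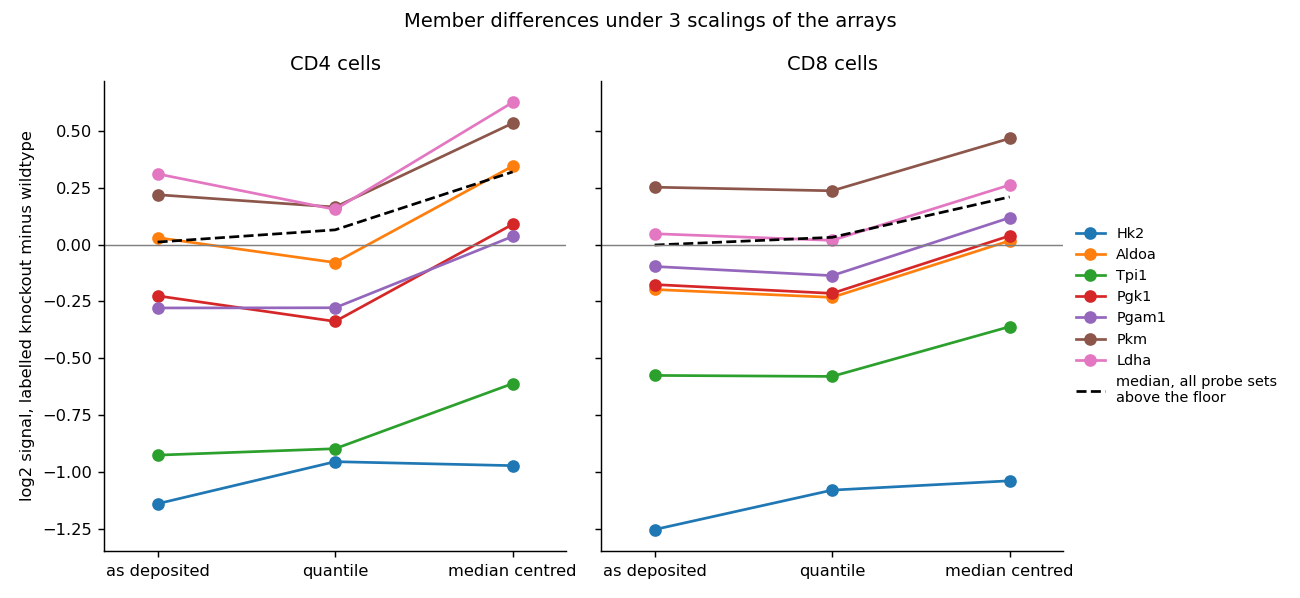
The log2 difference, labelled knockout minus wildtype, of 7 glycolysis enzymes under 3 scalings (the deposited values, quantile normalization and median centring), in CD4 (left) and CD8 cells (right); the dashed line is the median over all probe sets with 4 arrays above the floor. Pgk1 and Pgam1 in both panels and Aldoa in the right one cross 0 with median centring, where that dashed line stands at 0.32 and 0.21. Hk2 in the left panel is a bound.

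Differences between members on the same pair of arrays do not depend on a common scale factor. Against Pkm, Tpi1 was 2.21-fold lower for CD4 and 1.77-fold lower for CD8 cells on the array labelled knockout relative to wildtype, and against Pgk1 it was 1.62-fold and 1.32-fold lower. Pkm against Pgk1 was 1.36-fold higher for CD4 and 1.35-fold higher for CD8 cells. Hk2 against the constitutive hexokinase gene Hk1 was at least 2.30-fold lower for CD4 and 2.65-fold lower for CD8 cells. By the brightest probe set of each gene, these pairs differed unequally between the labelled genotypes, by values that have no replicate. In CD8 cells the dimmer Pgk1 probe sets stood at log2 differences of -0.06 and -0.57. The dimmer Tpi1 probe sets stood at -0.65 and -0.22 there. The order of Tpi1 and Pgk1 in CD8 cells therefore depended on the probe set.

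Between the subsets, Hk2 was higher in CD8 than in CD4 cells on arrays of either label. It read 173 in knockout CD8 against 48.4 in knockout CD4 cells, at least 1.85-fold higher, and 413 in wildtype CD8 against 207 in wildtype CD4 cells, 2.00-fold higher. Pkm was lower in CD8 cells, 5350 against 6679 on the arrays labelled knockout and 4493 against 5740 on those labelled wildtype, by 1.25-fold and 1.28-fold. Of the 7 members, Hk2 was the 1 at least 1.5-fold higher in CD8 cells (6.37% of all genes on the arrays labelled knockout and 8.74% on those labelled wildtype), and 0 were that much lower (5.11% and 11.3%). The member median of CD8 minus CD4 was 0.04 on the arrays labelled knockout and -0.01 on those labelled wildtype. The subset term of the limma fit called 0 of 14 probe sets (0.216% of all were called as higher and 0.105% as lower), with Hk2 at adjusted p = 0.347 and Pkm at 0.461. At an unadjusted p under 0.05 it gave Hk2 as higher (4.33% of all probe sets) and Pkm as lower (4.9%). Marker sums also differed, given here as CD8 against CD4 on the arrays labelled knockout, then wildtype. Dendritic and myeloid markers summed to 1100 against 2590.1, then 29218 against 2571. Antigen-experienced markers summed to 9405 against 1770, then 56753 against 52530. Dividing cell markers summed to 2436 against 1015, then 7152 against 16603. Their part in the subset differences was not tested. The CD8 difference between labels less the CD4 difference was 0.35 for the brightest Tpi1 probe set and -0.26 for Ldha on the log2 scale. It lay between -0.23 and 0.18 for the other members and was not tested. For Hk2 this value, -0.11, rests on the floor in knockout CD4. With no floor Hk2 stood at -2.10 in CD4 and -1.25 in CD8 cells, so the sign of its value depended on the floor.

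Other genes of the pathway were taken from a list of 37, of which 31 had a single-symbol probe set and 26 had an array above the floor. Their median log2 difference, labelled knockout minus wildtype, was -0.06 for CD4 and -0.07 for CD8 cells. In CD4 cells 6 of 26 were at least 1.5-fold lower (14.6% of all genes) and 2 higher (7.25%), and in CD8 cells 3 were lower (9.26%) and 1 higher (4.11%). Limma called 0 of their 49 tested probe sets. At an unadjusted p under 0.05 it gave 6 of 49 as lower (8.37% of all probe sets), from Slc2a3, Pfkp and Pfkfb3, and 2 as higher (5%), both from Pdk1.

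Pfkp and Pfkfb3 were the 2 genes of the list at least 1.5-fold lower in both subsets (4.73% of all genes). Pfkp, a phosphofructokinase isozyme, read 2510 on knockout CD4 against 3804 on wildtype CD4 and 2881 on knockout CD8 against 4657 on wildtype CD8, 1.52-fold and 1.62-fold lower, and its other probe set was 1.67-fold and 1.75-fold lower (adjusted p = 0.0737 and 0.228 by limma). Pfkfb3, whose product makes the activator of phosphofructokinase, read 548 against 839 for CD4 and 439 against 869 for CD8 cells, knockout against wildtype, while a dimmer probe set differed by log2 values of 0.09 and -0.54. Slc2a3, the glucose transporter of lymphocytes and neurons, read 2162 on knockout CD4 against 4217 on wildtype CD4 and 3082 on knockout CD8 against 4484 on wildtype CD8, 1.95-fold and 1.46-fold lower. All 4 Slc2a3 probe sets were lower on the arrays labelled knockout in both subsets, and the limma fit gave adjusted p = 0.074 for the brightest. Other genes of these steps did not all share this. Pfkl, a further phosphofructokinase isozyme chosen after its values were seen, stood at log2 differences of -0.05 for CD4 and 0.04 for CD8 cells. The glucose transporter gene Slc2a1 stood at 0.44 and -0.33. Pfkm, another phosphofructokinase isozyme also chosen after its values were seen, was lower, at -0.31 for CD4 and -0.60 for CD8 cells. With arrays centred on their medians Pfkm stood at 0.01 for CD4 and -0.39 for CD8 cells. Pfkp, Pfkfb3 and Slc2a3 stayed lower in both subsets with arrays centred on their medians, at -0.29, -0.30 and -0.65 for CD4 and -0.48, -0.77 and -0.33 for CD8 cells. The antigen-experienced and dividing cell markers were lower on the same arrays, and the dendritic and myeloid markers on knockout CD8, and their part was not tested.

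Pdk1, which encodes a kinase that inhibits pyruvate dehydrogenase and so limits pyruvate entry into mitochondria, stood on the other side and was chosen after its values were seen. It read 4955 on knockout CD4 against 2678 on wildtype CD4 and 5081 on knockout CD8 against 3502 on wildtype CD8, 1.85-fold and 1.45-fold higher, and its second probe set was 1.82-fold and 1.42-fold higher. Both arrays labelled knockout lay above both labelled wildtype, and limma did not call it (adjusted p = 0.0741 and 0.0854). Its relatives, also chosen after their values were seen, did not share one direction: Pdk2 was higher by log2 values of 0.24 and 0.66 at a low signal, and Pdk3 differed by -0.91 and -0.21, the second of which turned to 0.00 with median centring. Hk1 was near level, at 2741 against 2626 for CD4 and 2316 against 2078 for CD8 cells.

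Ldhb, the lactate dehydrogenase subunit that favours pyruvate formation, had its highest signal on wildtype CD4. It read 505 on knockout CD4 against 966 on wildtype CD4 and 331 on knockout CD8 against 355 on wildtype CD8. The CD4 difference was 1.91-fold lower, and the CD8 difference of -0.10 on the log2 scale turned to 0.03 after quantile normalization and 0.11 with median centring. In CD8 relative to CD4 cells Ldhb was 1.53-fold lower on the arrays labelled knockout and 2.72-fold lower on those labelled wildtype, by its brightest probe set (adjusted p = 0.329 for the subset term of limma). Its other 3 probe sets were 1.93-fold to 3.50-fold and 3.64-fold to 8.30-fold lower (adjusted p from 0.0727 to 0.215), the highest values being bounds because both CD8 arrays lay below the floor. The lactate transporter gene Slc16a1, chosen after its values were seen, was 2.07-fold and 1.74-fold higher in CD8 than in CD4 cells (adjusted p = 0.0626 by limma).

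**Figure D4:**
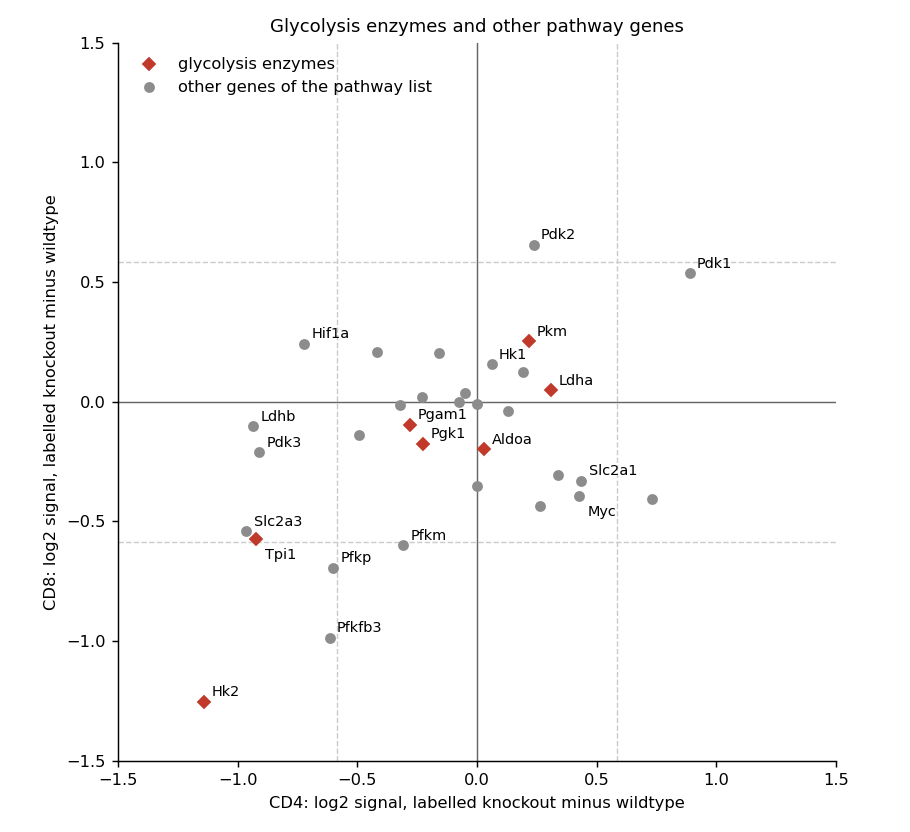
The log2 difference, labelled knockout minus wildtype, in CD4 (x axis) and CD8 cells (y axis) for 7 glycolysis enzymes (red diamonds) and 26 other genes of the pathway list (grey circles), with dashed lines at 1.5-fold; Hk2 in CD4 cells is a bound. Hk2, Tpi1, Slc2a3, Pfkp and Pfkfb3 lie in the lower left, and Pdk1 (0.89 and 0.54), Pdk2, Pkm and Ldha in the upper right.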

How the data were processed

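Each probe set has 1 deposited value per array, a signal intensity on a linear scale. Per the submitters' processing notes, GCOS 1.4 and MAS5 were used; no further step is named there. From the values, the deposited intensities have a 2% trimmed mean near 1000 on every array, so the authors appear to have scaled the arrays to a common level. Per the labels' protocols, RNA was extracted with TRIzol and about 1 microgram was labelled with biotin.

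Gene symbols came from the platform annotation, and 64 controls were left out of all fits. A gene was represented by its single-symbol probe set with the highest mean log2 signal. Signals under the 40th percentile (93.9) were set to it before log2, and a fold with 1 array there is a bound. Limma 3.58.1 (R 4.3.3, eBayes with trend, 6.1 prior degrees of freedom) was fitted on 15273 probe sets with an array above the floor, adjusted by Benjamini-Hochberg over all of them (threshold 0.05), and checked on simulated data. Tables and plots were made in Python 3.11.15 with pandas 2.3.3, numpy 2.4.6 and matplotlib 3.10.9. Within a subset there is 1 array a side and no test. The members, lists and tests were chosen with earlier results of these data known. The rule for named genes takes the members, list genes at least 1.5-fold apart in both subsets, any limma calls, and Slc2a1, Slc2a3, Ldhb, Hk1, Pfkp, Myc and Hif1a; Pdk1, Pdk2, Pdk3, Slc16a1, Pfkl, Pfkm and the pyruvate dehydrogenase genes lie outside it and were chosen after their values were seen. Alternatives changed the scaling, the floor, the pseudocount (16), the probe set of a gene, the limma trend and its filter.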

Additional observations from a re-analysis of the deposited data

Results flagged for a closer look

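Among the enzymes and pathway genes named, 7 differed in opposite directions in the subsets by their brightest probe set. None of these differences between subsets was tested. The share of all genes that do so was not computed. Slc16a1, Pfkl and Pdha1 were chosen after their values were seen. Each value is a log2 difference, labelled knockout minus wildtype, from 1 pair of arrays. List genes outside the named ones also did so, such as Eno3, at 0.26 in CD4 and -0.43 in CD8 cells. Aldoa stood at 0.03 in CD4 and -0.20 in CD8 cells, and with arrays centred on their medians at 0.34 and 0.02. Slc2a1, the glucose transporter that activated T cells raise, stood at 0.44 in CD4 and -0.33 in CD8 cells, with signals of 2030.2 against 1501 in CD4 and 1613 against 2027 in CD8 cells; 1 of its other probe sets shared this pattern (0.30 and -0.40), and the other was at 0.64 and 0.04. Myc, a transcription factor gene of growing cells, stood at 0.43 in CD4 and -0.39 in CD8 cells, with 2258 against 1682 and 2989 against 3926. Hif1a, which encodes a hypoxia-inducible factor, stood at -0.72 in CD4 and 0.24 in CD8 cells, with 4892 against 8075 and 4489 against 3796. Of its dimmer probe sets 1 was at -0.77 and 0.52 and 1 at -1.03 and -0.18. The dimmest Hif1a probe set was above the floor on wildtype CD4 only. It stood at -0.42 in CD4 cells, a bound, and both CD8 arrays were at the floor. Slc16a1 stood at -0.23 in CD4 and 0.02 in CD8 cells, both within the shift between scalings. Pdha1 stood at -0.16 in CD4 and 0.20 in CD8 cells, while its other probe set was higher in both (0.35 and 0.20). Pfkl stood at -0.05 in CD4 and 0.04 in CD8 cells, with the other probe set at 0.05 and -0.03.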

How the results depend on the processing

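No paired analysis was possible because each group has 1 array and the labels carry no replicate numbers. Leaving out an array was not possible for the same reason: it leaves no residual degree of freedom. The differences between labelled genotypes depended on the floor and the scaling. With arrays centred on their medians the member median in CD4 cells was 0.0886 and 1 member (Ldha) was at least 1.5-fold higher there. The median of all probe sets above the floor on every array stood at 0.32 in CD4 cells under that scaling. The CD4 median was -0.06 with the mean of a gene's probe sets and 0 with a floor at the 60th percentile. With that higher floor 1 member was at least 1.5-fold lower in CD4, 0 in CD8 and 0 in both subsets, since Hk2 lay under that floor on all 4 arrays. The shares of all genes at least 1.5-fold apart were not computed with median centring or with that floor. Limma called 2 of the 14 member probe sets for the genotype label, both of Tpi1, with a floor at the 25th percentile (2), no floor (2), the pseudocount (2) and a fit restricted to probe sets with 4 arrays above the floor (2), against 0 as deposited. Over all probe sets its genotype-label calls were 174 as deposited, 25 after quantile normalization, 32 with median centring, 589 and 89 with floors at the 25th and 60th percentiles, 584 without a floor, 689 with the pseudocount, 16 without the trend and 453 above the floor on all 4 arrays. The subset calls were 49 as deposited and, in the same order, 16, 17, 267, 32, 248, 315, 4 and 229. The fits without a floor, with the pseudocount and without the trend held the same 15273 probe sets as the fit to the deposited values. The share of probe sets called was not computed for the other settings, so 2 of 14 has no background share beside it. As deposited no member was called, so a change of sign among called differences could not be examined. The 2 Tpi1 probe sets called in other settings were lower on the arrays labelled knockout in every setting. With median centring Pgk1 and Pgam1 changed sign in both subsets and Aldoa in CD8 cells. In CD4 cells Aldoa turned to -0.08 after quantile normalization and to -0.03 with the mean of its probe sets. No array measures a spread between animals, and Hk2, near the floor, is the member whose size is least certain.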

Other observations

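The pyruvate dehydrogenase genes of the pathway list, which feed pyruvate into mitochondria and were chosen after their values were seen, showed no difference of 1.5-fold between the labelled genotypes in either subset as deposited. The brighter probe sets of Pdha1 and Pdhb, subunits of its first enzyme, read 4649 and 5584 on knockout CD4 against 5191 and 4884 on wildtype CD4, and 4545 and 5636 on knockout CD8 against 3945 and 5177 on wildtype CD8. The log2 differences of Dlat and Dld, its acetyltransferase and dehydrogenase, were -0.49 and -0.32 in CD4 and -0.14 and -0.02 in CD8 cells.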
